A study of Macaca mulatta with 2 samples.

Results

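The 9 genes described here are the glucocorticoid receptor *NR3C1*, the mineralocorticoid receptor *NR3C2*, the cortisol-regenerating enzyme *HSD11B1*, and 6 genes whose transcription glucocorticoids are known to raise, *FKBP5*, *TSC22D3*, *ZBTB16*, *PER1*, *KLF9* and *SGK1*. They were chosen by symbol, and all 9 were among the 16684 genes of the expression table. The table came from bulk RNA-seq of optic nerve from wild-type, untreated rhesus macaques, 1 condition with 2 libraries that the table names Rep1 and Rep2. The values are in TPM, a unit that gives each gene's length-corrected share of all transcripts in its library. The paper's methods name 1 male animal, whose eyes were collected after death for other research, whereas the deposited description names 2 animals, so the libraries are nerves of either 1 or 2 animals and their spread may be partly technical. With 1 condition there was no treated group, no hormone was given, and no plasma cortisol value was part of the data, so the design holds no comparison between groups and no test was possible. Each value is therefore given in both libraries, beside the spread between them.

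Cortisol, the main glucocorticoid of primates, crosses the cell membrane and binds a receptor that chaperones of the HSP90 machinery hold ready in the cytoplasm. The bound receptor moves to the nucleus, where pairs of receptors bind DNA at paired half-sites and raise or lower nearby genes. In the eye, steroid treatment can raise intraocular pressure, and glia of white matter are known to respond to glucocorticoids.

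The libraries stood apart before any of these genes was considered. A single read was worth 17.2 times as many TPM in Rep1 as in Rep2, so Rep1 was the shallower library, and it listed 38.5% of the genes at 0 against 12.5% in Rep2. All 8 oligodendrocyte markers, 7 of 8 astrocyte markers and all 6 fibroblast markers were at least 2-fold lower in Rep1 on the log2(TPM + 1) scale. The oligodendrocyte markers, which define this tissue, still summed to 46086 TPM in Rep1 beside 212682 TPM in Rep2. Of 8 microglia and macrophage markers 6 were lower in Rep1, and of 8 endothelial markers 4 were lower and 2 higher. Over all 14693 genes above 0 in at least 1 library, 51.3% were lower and 14.8% higher by the same rule. Of 10 photoreceptor and retina markers, 6 were at least 2-fold higher in Rep1 and none lower, with sums of 3606 TPM in Rep1 against 20.6 in Rep2, and *CRX* was listed at 0 in Rep2. Of 7 neuron markers above 0, 5 were at least 2-fold higher in Rep1 and none lower, with sums of 2310 and 33.6 TPM, while *SLC17A6* was listed at 0 in both libraries. The part of these other cell types in the differences given below was not tested. In bulk RNA, fewer cells of a type and less RNA per cell cannot be told apart.

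Sequence next to the start sites of these genes is shown for the 4 response genes in which 1 of the motifs searched for was found. In Mmul_10, the macaque genome build that the authors aligned to, the 9 genes have 36 annotated transcript starts (RefSeq), and the 250 bases before each start were searched on both strands. The core of the palindromic glucocorticoid response element, ACANNNTGT, occurred in 2 of these 36 windows, and in 3.68% of 49243 windows of all protein-coding genes. The half-site TGTTCT occurred in 1 window of these genes and in 10.5% of all windows. The complete palindrome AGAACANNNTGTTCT occurred in none of the 36 and in 2 of all windows. The E-box CACGTG, which the clock proteins CLOCK and BMAL1 bind, was found in 3 of the 36 windows and in 6.36% of all. The cyclic AMP response element TGACGTCA was found in 1 of the 36 and in 1.42% of all. The E-box and the cyclic AMP response element were added to the search after the windows had been read. Capitals mark the matched letters in the windows below, each written 5′ to 3′ and ending at the base before the start.

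SGK1 (chr4:37768200-37768449, minus strand, before an internal start): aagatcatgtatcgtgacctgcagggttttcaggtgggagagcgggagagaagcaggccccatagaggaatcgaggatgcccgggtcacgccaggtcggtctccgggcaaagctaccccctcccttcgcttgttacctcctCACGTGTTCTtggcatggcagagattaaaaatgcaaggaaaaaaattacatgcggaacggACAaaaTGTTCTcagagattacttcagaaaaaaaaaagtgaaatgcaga
PER1 (chr16:7958480-7958729, minus strand, before the first start): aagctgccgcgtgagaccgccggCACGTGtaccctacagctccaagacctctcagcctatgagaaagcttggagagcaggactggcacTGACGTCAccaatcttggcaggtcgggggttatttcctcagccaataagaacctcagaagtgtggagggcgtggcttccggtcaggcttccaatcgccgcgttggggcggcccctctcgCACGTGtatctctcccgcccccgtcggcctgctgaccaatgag
FKBP5 (chr4:133793708-133793957, plus strand, before its only start): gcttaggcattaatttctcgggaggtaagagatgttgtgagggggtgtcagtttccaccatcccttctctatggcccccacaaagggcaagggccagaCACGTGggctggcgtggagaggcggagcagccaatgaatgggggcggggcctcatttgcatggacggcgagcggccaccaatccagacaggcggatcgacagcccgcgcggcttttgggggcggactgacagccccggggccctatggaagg
TSC22D3 (chrX:104517929-104517958, minus strand, last bases before an internal start): gcccctctagggtaatttACAtgcTGTcat

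In the *SGK1* window the response core began at base -49, and its downstream arm continued into a half-site that began at -43. A second half-site, at -105, shared its first bases with the E-box at -109. In *PER1* the E-boxes began at -227 and -43, with the cyclic AMP response element between them at -162. In *FKBP5* the E-box began at -152 and neither response motif was found. In *TSC22D3* the core began at -12 of 1 of its 11 starts. No match in a window says only that the letters are not in that window, and a match is not a site shown to be bound. Response elements of such genes are known to lie also in introns and far upstream, which were not searched.

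The glucocorticoid receptor transcript was abundant in both libraries, and the mineralocorticoid receptor transcript was lower than it in both. *NR3C1* occupies bases 140690312 to 141146718 of chromosome 6, minus strand, with 10 annotated transcripts. It stood at 202 TPM in Rep1 against 85.2 in Rep2, a mean of 144 ± 82.8 TPM (SD, n = 2 libraries). That mean exceeded 92.2% of the 14693 genes that either library held above 0, and the values rested on at least 293 reads in Rep1 and 2120 in Rep2. *NR3C2*, which binds aldosterone and, with high affinity, cortisol, lies on chromosome 5 from 145686067 to 146051260 on the minus strand. It stood at 3.76 TPM in Rep1 against 5.24 in Rep2, a mean of 4.50 ± 1.04 TPM (SD, n = 2) at percentile 37.6, with percentile 50.9 in Rep1 and 36.8 in Rep2, on at least 12 and 287 reads.

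The ratio of the receptors within a library does not depend on how that library was scaled. The TPM of *NR3C1* was 53.8 times that of *NR3C2* in Rep1 and 16.3 times in Rep2. The glucocorticoid receptor transcript thus exceeded the mineralocorticoid receptor transcript in both libraries, by a margin that differed between them by 1.63 on the log2(TPM + 1) scale. *NR3C2* had the smallest difference between the libraries of all 9 genes, -0.39 (Rep1 minus Rep2), which turned to 0.58 after scaling by the median of ratios and to 1.60 after scaling to the nerve cell markers. These are the oligodendrocyte, astrocyte, endothelial and fibroblast markers, and no neuron marker is among them. Oligodendrocyte markers made up most of their summed TPM in both libraries. The progesterone receptor gene *PGR*, of the same subfamily, stood at 2.84 TPM in Rep1 against 2.60 in Rep2. Among the 9 listed members and relatives of the family, 4 were at least 2-fold higher in Rep1 (*NR3C1*, *ESRRA*, *ESRRB* and *ESRRG*) and 2 lower. The shares were 44.4% and 22.2%, beside 14.8% and 51.3% of all genes. The estrogen-related receptor *ESRRA* was at 54.2 TPM in Rep1, 5.42 times its value in Rep2, and *ESRRG* at 36.1 and 4.11 TPM in Rep1 and Rep2.

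The transcripts of the enzymes that interconvert cortisol and cortisone were low in Rep2 and listed at 0 in Rep1. *HSD11B1*, whose enzyme regenerates active cortisol from inert cortisone, lies on chromosome 1 from 67209536 to 67239875 on the plus strand. It was listed at 0 in Rep1 and at 0.853 TPM in Rep2, the lowest level of the 9 genes. A 0 in Rep1 was usual at that level, since 68.0% of the 200 genes nearest to it in Rep2 were listed at 0 there too. *HSD11B2*, whose enzyme inactivates cortisol and so shields the mineralocorticoid receptor, was listed at 0 in Rep1 and at 4.36 TPM in Rep2. *H6PD*, which supplies the cofactor for the cortisol-regenerating reaction, was at 0 and 1.21 TPM. In Rep2, the only library with reads for these genes, *HSD11B1* was thus at 0.196 times the TPM of *HSD11B2*. Of 16 listed genes of corticosteroid metabolism and transport, 14 were above 0 in at least 1 library, 10 of them at 0 in Rep1, 7 at least 2-fold lower in Rep1 and none higher. These 7 of 14 compare with 51.3% of all genes, and of all genes above 0 in Rep2 30.4% were at 0 in Rep1. The list was lower in level, with a median of 2.79 TPM in Rep2 beside 11.7 over all genes above 0 in at least 1 library. A share of zeros at matched level was not computed for the list. The highest of the list were *SRD5A3* at 2.57 TPM in Rep1 against 48.2 in Rep2, *ABCB1*, the drug efflux pump of the blood-brain barrier, at 11.1 and 15.8 TPM, *HSD11B1L* at 0 and 26.8 TPM, and *ABCG2* at 1.25 and 8.80 TPM. *HSD11B1* shared no 50-base stretch with transcripts of any other gene, although it lies within *C1H1orf74* on the opposite strand, with no exonic base in common.

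*FKBP5*, the cochaperone that lowers the affinity of the receptor for hormone and is itself a response gene, was the response gene with the lowest mean. It lies on chromosome 4 from 133793958 to 133913446 on the plus strand with 1 annotated transcript. Of its 50-base stretches, 3.90% are shared with annotated transcripts of 244 other genes. No value above 0 was listed for *FKBP5* in Rep1, whereas Rep2 held 13.1 TPM, above 52.3% of genes there. Among the 200 genes nearest to it in Rep2, 20.5% were also listed at 0 in Rep1, so such a 0 was less common at this level than at that of *HSD11B1*. *FKBP4*, its paralog with the opposite action on hormone binding, stood at 27.6 TPM in Rep1 against 61.3 in Rep2, on at least 8 and 305 reads. The *FKBP5* level was 0.213 times that of *FKBP4* in Rep2. The chaperones and cochaperones that hold the receptor spanned a wide range, and the highest of them were *HSP90AA1* at 735 and 1513 TPM, *DNAJB1* at 413 and 574 TPM, *DNAJA1* at 612 and 165 TPM and *HSPA8* at 229 and 492 TPM. Of 17 chaperones and immunophilins, 4 were at least 2-fold higher in Rep1 (*HSPA4*, *HSPA1A*, *DNAJA1* and *AHSA1*) and 7 lower, which the median of ratios changed to 7 higher and 3 lower. The shares were 23.5% and 41.2% as deposited, beside 14.8% and 51.3% of all genes. After that scaling they were 41.2% and 17.6%, beside 23.7% and 33.8% of all genes.

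*SGK1* and *TSC22D3* were the most abundant of the 9 genes in both libraries. *SGK1* encodes a kinase that acts on ion channels and transporters and that glucocorticoids and aldosterone induce, and it lies on chromosome 4 from 37761173 to 37912105 on the minus strand. It stood at 1469.5 TPM in Rep1 against 468 in Rep2, a mean of 969 ± 708 TPM (SD, n = 2), on at least 449 and 2459 reads. By rank it was gene 95 of the table in Rep1 and gene 218 in Rep2. *TSC22D3* encodes GILZ, the leucine zipper protein that mediates part of the anti-inflammatory action of glucocorticoids, and it lies on chromosome X from 104454859 to 104519281 on the minus strand. It stood at 551 TPM in Rep1 against 261 in Rep2, a mean of 406 ± 205 TPM (SD, n = 2), on at least 324 and 2635 reads. Together these transcripts made up 86.3% of the summed TPM of the 9 genes in Rep1 and 72.8% in Rep2. Both were higher in Rep1, as *NR3C1* was, and their ratios to it differed less between the libraries than those of the other response genes. *TSC22D3* was at 2.72 times *NR3C1* in Rep1 and 3.06 times in Rep2, and *SGK1* at 7.26 and 5.50 times.

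**Figure D1:**
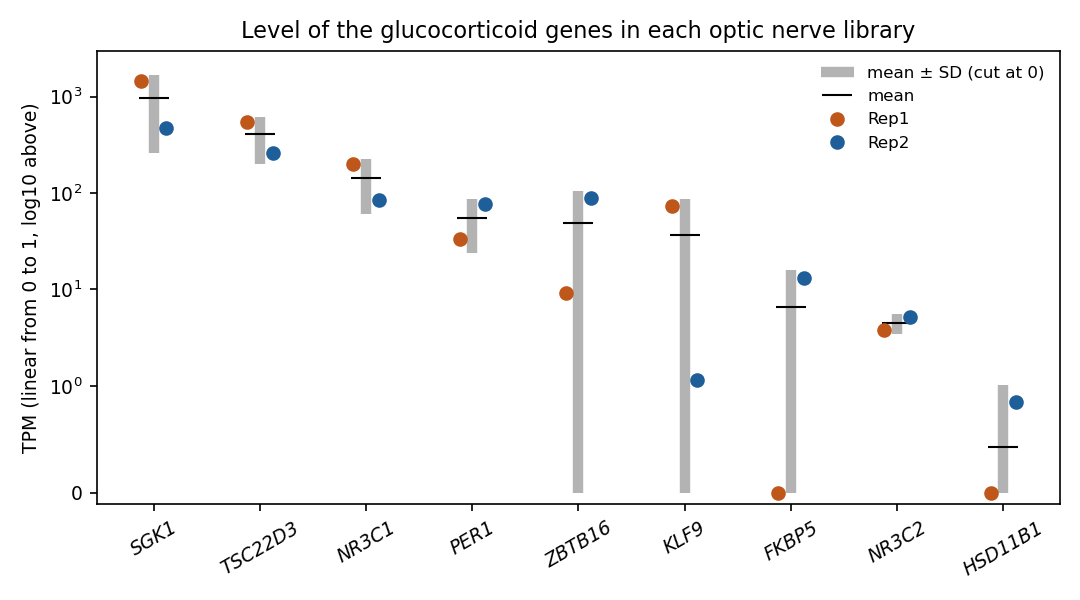
TPM of each of the 9 glucocorticoid genes in Rep1 and Rep2 on an axis that is linear from 0 to 1 and logarithmic above, ordered by mean, with the mean as a bar and the SD of the 2 libraries in grey. *SGK1* and *TSC22D3* lead in both libraries, *KLF9* spans from 1.14 to 72.8 TPM, and *FKBP5* and *HSD11B1* are at 0 in Rep1.

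The paralogs of these leading genes were ordered otherwise in each library. *TSC22D1* stood at 281 TPM in Rep1 against 1140.1 in Rep2, and *TSC22D4* at 21.0 and 363 TPM. *TSC22D3* was therefore above both in Rep1, at 1.96 times *TSC22D1* and 26.2 times *TSC22D4*, and below both in Rep2, at 0.229 and 0.718 times. *SGK2* was listed at 0 in Rep1 and at 6.14 TPM in Rep2. Over 18 listed paralogs of the 9 genes, 3 were at least 2-fold higher in Rep1 (*TSC22D2*, *KLF13* and *ZBTB18*) and 13 lower. The shares were 16.7% and 72.2%, beside 14.8% and 51.3% of all genes.

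The remaining 3 response genes, all encoding regulators of transcription, stood at less similar ratios to the receptor in the libraries than *SGK1* and *TSC22D3* did. *ZBTB16* encodes PLZF, a zinc finger repressor, and lies on chromosome 14 from 107205938 to 107403230 on the plus strand. It stood at 9.13 TPM in Rep1 against 88.7 in Rep2, a mean of 48.9 ± 56.2 TPM (SD, n = 2), on at least 7 and 1168 reads. It was at 0.0451 times *NR3C1* in Rep1 and 1.04 times in Rep2. Of its annotated exonic bases, 26.3% are shared with *LOC114672406*, a long noncoding RNA gene of the opposite strand that the table does not list, and the use of strand in the counting is not given in the sources used here, so its level is uncertain to that extent.

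*PER1*, a repressor in the circadian clock that glucocorticoids induce acutely, lies on chromosome 16 from 7942485 to 7958479 on the minus strand. It stood at 33.1 TPM in Rep1 against 77.7 in Rep2, a mean of 55.4 ± 31.5 TPM (SD, n = 2), on at least 7 reads in Rep1 and 282 in Rep2. It was at 0.164 times *NR3C1* in Rep1 and 0.912 times in Rep2. That ratio differed by -2.44 on the log2(TPM + 1) scale, less than the spread of 3.27 from genes of similar level. The ratios of *ZBTB16* and *KLF9* to *NR3C1* differed by more than their spread. *PER1* led its paralogs in both libraries, with *PER2* at 2.59 TPM in Rep1 against 42.5 in Rep2 and *PER3* at 15.8 and 75.1 TPM. The margin over *PER3* was 2.10 times in Rep1 and 1.03 times in Rep2.

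*KLF9*, a Krüppel-like repressor that slows proliferation, lies on chromosome 15 from 85803079 to 85830014 on the minus strand. It stood at 72.8 TPM in Rep1 against 1.14 in Rep2, a mean of 37.0 ± 50.6 TPM (SD, n = 2). The values rested on at least 382 and 103 reads, so neither was a matter of a few reads, although PCR copies of 1 molecule are counted again as reads. The 63.7-fold ratio was the largest of the 7 genes above 0 in both libraries. *KLF9* was at percentile 88.0 in Rep1 and 18.8 in Rep2, and at 0.360 and 0.0134 times *NR3C1*. Its 1 annotated transcript, of 1062 bases, shares no 50-base stretch with transcripts of other genes.

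Across the 9 genes, 4 were at least 2-fold higher in Rep1 on the log2(TPM + 1) scale, by 5.11 for *KLF9*, 1.65 for *SGK1*, 1.24 for *NR3C1* and 1.08 for *TSC22D3*. Over all 14693 genes, 14.8% were higher in Rep1 by that rule. A further 3 were at least 2-fold lower in Rep1, by -3.81 for *FKBP5*, -3.15 for *ZBTB16* and -1.20 for *PER1*, and 51.3% of all genes were. *HSD11B1* (-0.89) and *NR3C2* (-0.39) lay within 2-fold. At its deposited level *HSD11B1* could not pass 2-fold with a pseudocount of 1. It differed by -3.25 with a pseudocount of 0.1. Without the 10 most abundant genes, which raised its TPM, it differed by -1.09 with a pseudocount of 1. The median of the 9 differences was -0.39, beside -1.07 over all genes. Of genes above 0 in Rep2, 30.4% were listed at 0 in Rep1, as were 2 of the 9.

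**Figure D2:**
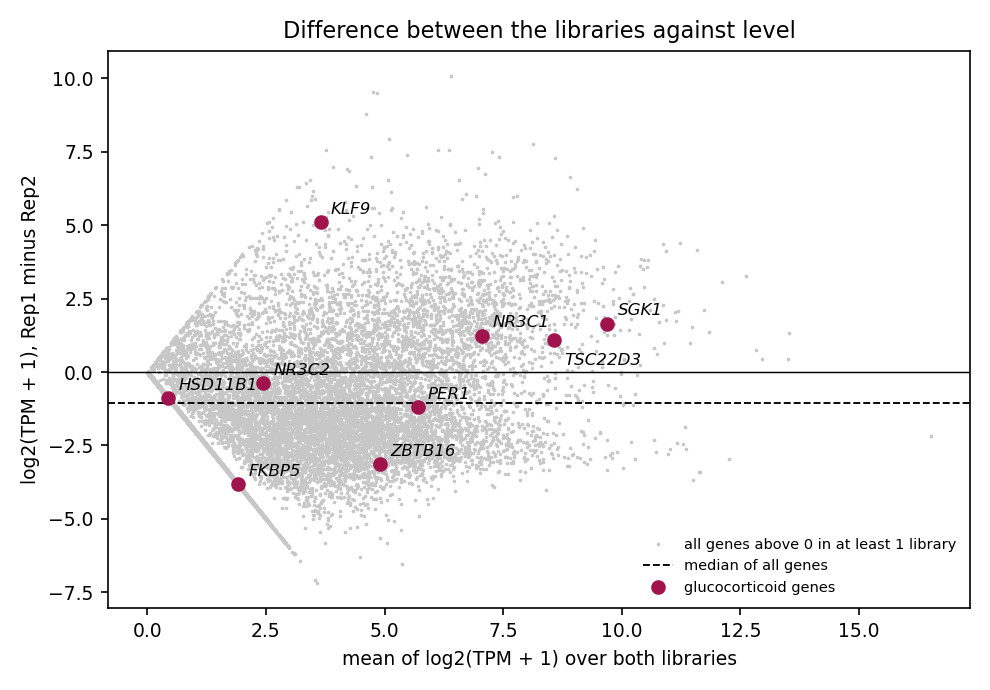
Difference between the libraries in log2(TPM + 1), Rep1 minus Rep2, against the mean of the same scale, for the 14693 genes above 0 in at least 1 library (grey) and the 9 glucocorticoid genes (red). The dashed line is the median of all genes, -1.07, and *KLF9*, *SGK1*, *NR3C1* and *TSC22D3* lie above 0.

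Of the 7 genes above 0 in both libraries, *NR3C1*, *TSC22D3*, *SGK1*, *KLF9* and *ZBTB16* kept the direction of their difference under the scalings, and *PER1* and *NR3C2* did not. *FKBP5* and *HSD11B1*, at 0 in Rep1, could not turn under any scaling. The median of ratios, which removes a log2 shift of -1.19 between the libraries, gave 2.42 for *NR3C1*, 2.84 for *SGK1*, 2.26 for *TSC22D3* and 5.98 for *KLF9*. It gave -3.27 for *FKBP5*, -2.01 for *ZBTB16* and -0.04 for *PER1*. Scaling Rep1 by 4.77, to the summed oligodendrocyte, astrocyte, endothelial and fibroblast markers of Rep2 (the nerve cell markers), gave 1.02 for *PER1* and -1.01 for *ZBTB16*. Without the 10 most abundant genes, *TSC22D3* differed by 0.91, just under 2-fold, and 13.9% of all genes were at least 2-fold higher and 55.3% lower in Rep1. By the median of ratios 23.7% of all genes were at least 2-fold higher and 33.8% lower in Rep1, and by the nerve cell markers 34.9% and 24.5%.

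**Figure D3:**
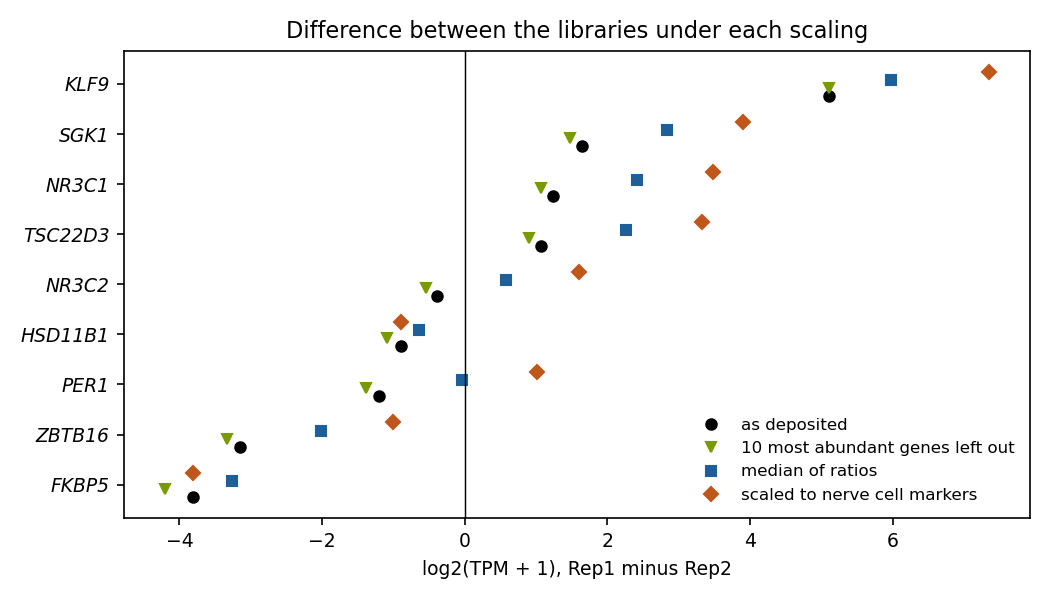
Difference between the libraries in log2(TPM + 1), Rep1 minus Rep2, for the 9 genes under 4 scalings of the TPM values, each with its own symbol. *KLF9*, *SGK1*, *NR3C1* and *TSC22D3* stay to the right of 0 and *FKBP5*, *ZBTB16* and *HSD11B1* to the left, whereas *PER1* and *NR3C2* cross it.

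Most neighbours in level lay close to each other when set against the spread between the libraries. This spread was measured as a single-library SD, taken from how far Rep1 and Rep2 lay apart in the 200 genes of most similar mean. It ran from 0.60 to 2.10 on the log2(TPM + 1) scale. It includes the shift of all genes between the libraries (median -1.07), which leaves the order within a library unchanged. By mean TPM the order was *SGK1*, *TSC22D3*, *NR3C1*, *PER1*, *ZBTB16*, *KLF9*, *FKBP5*, *NR3C2* and *HSD11B1*, although *NR3C2* was above *FKBP5* by the mean of the log2 values. Of the 8 pairs of neighbours, only *NR3C2* and *HSD11B1* lay more than 1 SD apart, by 1.30 SDs. *SGK1* and *TSC22D3* differed by 0.61 SDs, *TSC22D3* and *NR3C1* by 0.84, and *NR3C1* and *PER1* by 0.83. Each of these 3 pairs stood in the same order in both libraries. Of all 36 pairs of the 9 genes, 28 did, 7 stood in opposite order, 4 of them with *KLF9*, and 1 was tied at 0 in Rep1. For 4 of the 9 genes, *KLF9*, *ZBTB16*, *FKBP5* and *HSD11B1*, the SD of the libraries was at least as large as the mean. The gene lengths behind the TPM values are not given in the sources used here, and an error in 1 of them would move that gene against the others in both libraries.

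Genes outside the 9 with the most similar pair of values were sought as well, by Euclidean distance in log2(TPM + 1) over the 2 libraries. The nearest to *NR3C1* was the clock kinase gene *CSNK1E*, at 202 and 86.3 TPM and a distance of 0.02. The nearest to *TSC22D3* was *VDAC3* (0.05), to *SGK1* *PAIP2* (0.19), to *PER1* *CLASP2* (0.03), to *ZBTB16* *PPFIA1* (0.03), to *NR3C2* *PCDH18* (0.02) and to *KLF9* the receptor coactivator gene *CARM1* (0.20). Likeness over 2 libraries says no more than that these pairs of values were close.

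Among 47 other glucocorticoid response genes above 0, 3 were at least 2-fold higher in Rep1 (*CEBPB*, *IRS2* and *BCL2L1*), or 6.38%, and 30 were lower, or 63.8%. Over all genes 14.8% were higher and 51.3% lower. By the median of ratios the shares of the list were 14.9% and 40.4%, beside 23.7% and 33.8% of all genes. The list's median difference was -1.91 as deposited and -0.74 after that scaling. Its highest members were *GPX3*, an extracellular peroxidase, at 367 TPM in Rep1 against 1833 in Rep2, *NFKBIA*, the inhibitor of NF-kB, at 768 and 1109 TPM, *GLUL*, the glutamine synthetase of astrocytes, at 364 and 1506 TPM, and *ZFP36*, a destabilizer of inflammatory mRNA, at 195 and 1192 TPM. *DUSP1*, a phosphatase of MAP kinases, stood at 402 and 804 TPM. *MYOC*, the myocilin gene that steroids induce in the trabecular meshwork, stood at 157 and 597 TPM. *SGK1*, *TSC22D3* and *KLF9*, which were higher in Rep1, therefore stood with the smaller number of response genes that were, while *ZBTB16*, *PER1* and *FKBP5* lay with the larger number.

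**Figure D4:**
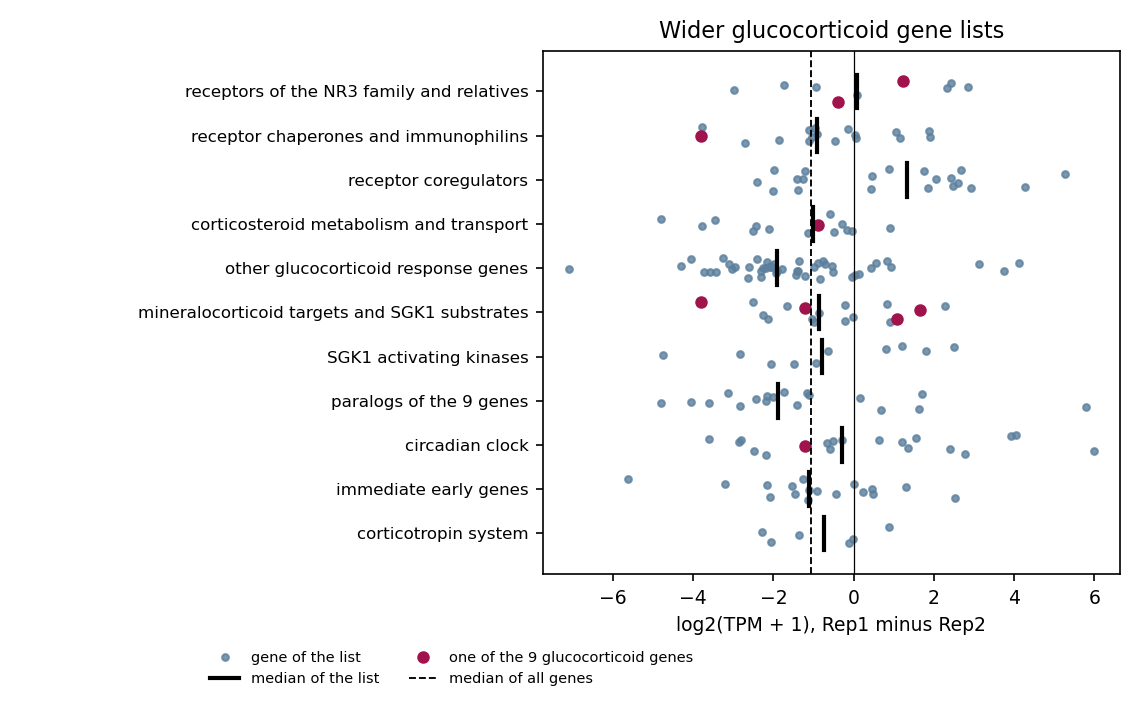
Difference between the libraries in log2(TPM + 1), Rep1 minus Rep2, for each gene above 0 of 11 lists around the glucocorticoid receptor, with the 9 genes in red, list medians as black bars and the median of all genes, -1.07, as a dashed line. The coregulator list has its median at 1.32 and the other response genes at -1.91.

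Among the 11 lists around the receptor, the coregulators had the highest median difference, at 1.32 as deposited and 2.43 by the median of ratios. Of the 20 genes, 10 were at least 2-fold higher in Rep1 and 7 lower, and after that scaling 13 and 1. Over all genes 14.8% were higher and 51.3% lower, and 23.7% and 33.8% after that scaling. The corepressor *NCOR1* stood at 1091 TPM in Rep1 against 142 in Rep2, and the coactivators *PPARGC1A* at 307 and 15.0 TPM, *CREBBP* at 181 and 52.5 TPM and *NCOA2* at 194 and 33.8 TPM. The sum of the list was 2472 TPM in Rep1 against 697 in Rep2, and *NCOR1* was its largest part in both libraries.

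Among targets of the mineralocorticoid receptor and of *SGK1*, the shares lay near those of all genes. This list includes *SGK1*, *TSC22D3*, *FKBP5* and *PER1* themselves, so its shares partly repeat values given above. Of 17 genes above 0, 3 were at least 2-fold higher in Rep1 (*SGK1*, *NEDD4* and *TSC22D3*), or 17.6% beside 14.8% of all genes, and 7 lower, or 41.2% beside 51.3%. *WNK1*, a kinase upstream of salt transporters, was at 383 and 388 TPM. *NDRG1* and *NDRG2*, whose proteins SGK1 phosphorylates, were at 87.2 and 421 TPM and at 208 and 410.4 TPM. *NEDD4L*, the ubiquitin ligase that SGK1 restrains, was at 27.4 and 14.2 TPM. Of 10 listed kinases and subunits of their complexes around *SGK1*, 3 were at least 2-fold higher in Rep1, including *RICTOR* at 88.6 and 24.8 TPM and *MAPKAP1* at 195 and 33.6 TPM, and *PDPK1*, *MLST8*, *AKT2* and *SGK2* were lower. *RICTOR* and *MAPKAP1* encode subunits of the mTOR complex that activates the kinase.

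Clock genes, to which *PER1* belongs, went both ways. Of 19 genes, 8 were at least 2-fold higher in Rep1 and 6 lower. The shares were 42.1% and 31.6%, beside 14.8% and 51.3% of all genes. *BHLHE40* stood at 103 TPM in Rep1 against 730.1 in Rep2, *RORA* at 627 and 37.0 TPM, *CSNK1D* at 440.4 and 149 TPM and *CSNK1E* at 202 and 86.3 TPM. *PER1*, *PER2* and *PER3* were all lower in Rep1 as deposited, by -1.20, -3.60 and -2.18. Under scaling to the nerve cell markers that of *PER1* turned to 1.02, and that of *PER3* nearly vanished. The hour at which the nerves were collected is not given in the sources used here.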

How the data were processed

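Total RNA of untreated macaque optic nerve was sequenced in 2 libraries. Per the paper's methods and the submitters' processing notes, the authors amplified cDNA with a SMARTer v4 Ultra Low Input kit, checked reads with FastQC 0.11.9, trimmed them with Trim Galore 0.6.6, aligned them to Mmul_10 with STAR 2.7.1a, counted them per gene with featureCounts 1.5.3 and deposited TPM values, which sum to 1000000 in each library. Columns Rep1 and Rep2 match no single sample title and served as replicates of the condition. TPM compares genes per length, but values within a library are shares, so that 1 abundant transcript depresses the rest.

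Values were analysed with Python 3.11.15, numpy 2.4.6, pandas 2.3.3 and matplotlib 3.10.9, with a pseudocount of 1 on the log2 scale. No test was run. The ratio of a gene's values between the libraries was written as the smallest whole read numbers that give it (tolerance 1e-12), which worked for 99.9% of genes above 0 in both. These are lower bounds, the depth in reads is unknown, and no interval or detection limit was computed. The procedures were checked on artificial libraries with known answers. Coordinates, transcript starts and windows came from the RefSeq annotation of Mmul_10, and protein sequences were not used here. The 9 genes, lists and alternatives were chosen with earlier results of these data known. The rule named the 9 genes, the 4 highest genes of each list, fixed partners and paralogs, and the nearest gene by pattern. *PGR* and genes in brackets beside small counts were named after their values had been seen, and some genes counted in the lists are not reported here by name. Alternatives were 3 other scalings, a pseudocount of 0.1, the geometric mean, other gene sets, other estimates of the SD, and each library alone.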

Additional observations from a re-analysis of the deposited data

How the results depend on the processing

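No paired analysis was possible because only 1 condition was sequenced. Leaving out a library leaves no difference between libraries, and the level of each of the 9 genes is then that of the other library, as given above. From 3 to 6 of the 9 genes were at least 2-fold higher in Rep1 and from 2 to 4 lower under the scalings, the pseudocount of 0.1 and the filter at a mean of 1 TPM. Of all genes, from 13.9% to 34.9% were higher and from 24.5% to 55.3% lower across the deposited values and the scalings. For the pseudocount of 0.1 and the filter the shares of all genes were not computed. The median difference of the 9 genes was -0.39 as deposited, -0.55 without the 10 most abundant genes, -0.47 with a pseudocount of 0.1, 0.58 by the median of ratios and 1.60 by the nerve cell markers. *PER1* turned from -1.20 to 1.02 by the nerve cell markers, since that scaling multiplies Rep1. Neighbours over 1 SD apart numbered 2 in place of 1 with the SD measured about the mean difference, by the median of ratios and by the nerve cell markers, where *KLF9* and *FKBP5* lay 1.26, 1.43 and 1.52 SDs apart, and 1 under the other alternatives. The nerve cell markers also raised the mean TPM by more than 1 SD for *NR3C1* (526), *NR3C2* (11.6), *TSC22D3* (1445), *PER1* (118), *KLF9* (174) and *SGK1* (3742). Of the counts per list under alternatives, 74 lay within 1.5 times of the deposited value and 36 did not. Rep1 was the shallower library, and a 0 there does not show absence of *FKBP5* or *HSD11B1*. Among the genes nearest in level in Rep2, 20.5% were at 0 in Rep1 for *FKBP5* and 68.0% for *HSD11B1*. Whether depth gave the 0 of these genes was not tested.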

Other observations

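Immediate early genes, which nerve handling and hypoxia are known to raise and some of which share induction with *PER1* and *SGK1*, spanned a wide range of levels. Of the highest, *JUNB* stood at 1459 TPM in Rep1 against 1239 in Rep2, *FOS* at 822 and 1772 TPM, *JUND* at 1239 and 907 TPM and *JUN* at 558 and 96.3 TPM. Of these 17 genes, 2 were at least 2-fold higher in Rep1 (*JUN* and *EGR2*) and 9 lower. The shares were 11.8% and 52.9%, beside 14.8% and 51.3% of all genes. The median difference of the list was -1.11, beside -1.07 over all genes.

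Genes of the corticotropin system, which drives adrenal cortisol from the hypothalamus and pituitary, stood below 10 TPM in both libraries. Of 10 listed genes, 6 were above 0 in at least 1 library. *POMC*, the precursor of corticotropin, stood at 0.920 TPM in Rep1 against 6.96 in Rep2. *CRHBP* was at 2.63 and 2.68 TPM, *UCN* at 0 and 3.83 TPM and *CRHR1* at 1.64 and 0.429 TPM.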
